A study of Homo sapiens with 2 samples.

Results

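The genes described are those of the RB pocket proteins, the E2F factors they bind, the E2F partner TFDP1 and the E-type cyclins. The 10 genes (RB1, RBL1, RBL2, E2F1, E2F2, E2F3, E2F4, TFDP1, CCNE1 and CCNE2) were chosen by name and found by their Ensembl identifiers among the 57736 genes of the tables. Poly(A)+ RNA was sequenced from HEK293T cells labelled as wild type and of kidney origin, grown in DMEM with serum and not treated. The libraries formed 1 group of 2 replicates, so the comparisons are those between genes and between replicate libraries. The labels do not say whether the replicates came from separate cultures, so the spread between them may be technical.

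HEK293T is an embryonic kidney line transformed with adenovirus DNA and later given the SV40 large T antigen. The line is a limited model for these genes, since the adenovirus E1A protein and large T both bind the pocket proteins and release E2F factors from them. In cells without such proteins, the pocket proteins bind E2F factors and hold their target genes down. Cyclins of the D type with CDK4 or CDK6, and then cyclin E with CDK2, phosphorylate the pocket proteins, E2F is released, and the genes needed for S phase are transcribed. E2F1, E2F2 and E2F3 are the activators of this family, whereas E2F4 works mainly as a repressor together with RBL1 and RBL2. These factors bind DNA as dimers with a DP protein such as TFDP1. All values below are levels of RNA, and neither the proteins nor their phosphorylation was measured.

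The libraries held 10593491 and 10104118 estimated counts. Markers were read as a check of the label. Of 10 kidney markers 2 were detected, LRP2 and EMX1 (the latter better known from the forebrain), and the summed level of the list was 13.7 and 16.4 TPM. UMOD, CDH16 and SLC34A1 had 0 counts in both replicates, so these markers of the kidney tubule were not detected at this depth. PTPRC, a marker of white blood cells, had 1 count in each replicate. Detected were also 0 of 2 endothelial, 1 of 4 fibroblast and 3 of 5 neuronal markers, with summed levels of 0 to 0.02, 10.1 to 12.0 and 283 to 290 TPM. UCHL1 alone gave 251 and 256 TPM of the neuronal sum, INA 21.8 and 23.0, and NEFM 9.93 and 11.1. STMN2 had 0 counts in both replicates and SNAP25 had 0 and 1. Their part in the levels below was not tested.

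Several of these genes are themselves known E2F targets, so promoter sequences that match the E2F consensus are shown. Binding was not measured. The E2F consensus was searched on both strands as the words TTTCCCGC, TTTCGCGC, TTTGCCGC and TTTGGCGC, in windows from 250 bases before to 50 bases after each RefSeq gene start. The 9 members with a window had 11 windows, and 5 of these, in 5 genes, held a match. Of all 35116 windows 3.31% held one, and of the windows of detected protein-coding genes 4.88%. The members were chosen for a pathway in which E2F regulates several of its own genes, so the count is a description. The sequences are given 5′ to 3′ along the gene, with the matches in capitals, and positions are on GRCh37, where each window was found once.
E2F1, chromosome 20 from 32274199 to 32274228, minus strand: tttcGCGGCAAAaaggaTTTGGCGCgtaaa
RBL1, chromosome 20 from 35724403 to 35724432, minus strand: gcagatTTTCGCGCgcTTTGGCGCaggtgg
E2F2, chromosome 1 from 23857749 to 23857778, minus strand: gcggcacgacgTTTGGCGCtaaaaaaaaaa
E2F3, chromosome 6 from 20402046 to 20402075, plus strand: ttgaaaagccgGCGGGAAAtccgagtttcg
TFDP1, chromosome 13 from 114238937 to 114238966, plus strand: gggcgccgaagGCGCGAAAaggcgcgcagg

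E2F1 and RBL1 each held a pair of matches, within the 33 bases before the E2F1 start and the 26 bases before the RBL1 start. The single matches lay 42 bases before the start in E2F2, 53 in E2F3 and 120 in TFDP1, counted to the first base of the match. The windows of RBL2, E2F4 and CCNE1 held no match, and CCNE2 had no window. E2F3 had another window, from 20403595 to 20403894, which held no match. The RefSeq window of RB1 belongs to a start 173 kb inside the gene and held none. The window at the start of the longest listed RB1 transcript, at 48877887, was therefore read from GRCh37 as well, a choice made after the values were seen. It held 1 match, 25 bases before the start.
RB1, chromosome 13 from 48877851 to 48877880, plus strand: ggaagtgacgtTTTCCCGCggttggacgcg

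All 10 genes were detected, that is, their TPM was 1 or more in each replicate. TPM is the estimated share of a gene in all transcripts, corrected for transcript length and scaled to a common total. In RNA from bulk cultures, few cells with much RNA of a gene and many cells with little cannot be told apart. Of all genes 27.7% were detected, and of protein-coding genes 63.7%. The levels ran from 16.0 ± 2.04 TPM for E2F2 to 72.9 ± 4.33 TPM for TFDP1 (SD, n = 2), a range of 4.56-fold, and together they made up 0.0360% and 0.0351% of the TPM. Among the 12345 detected protein-coding genes, whose median was 21.2 TPM, the members lay between percentiles 41.4 and 84.1, and 7 of them were above the median. The genes follow in order of their roles.

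**Figure D1:**
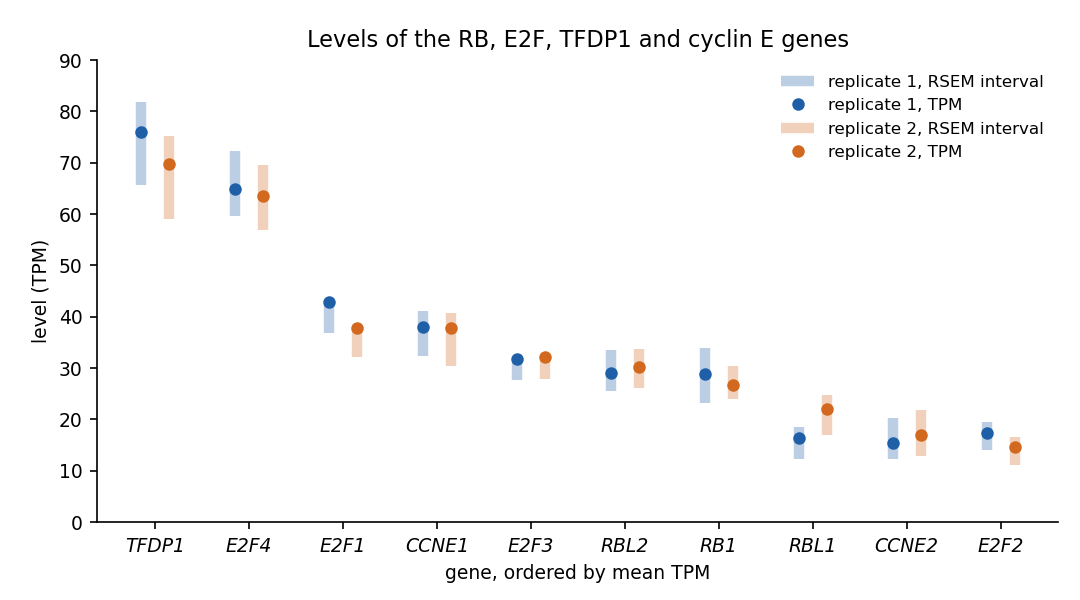
Level in TPM (vertical axis, linear from 0) of each gene (horizontal axis, ordered by mean TPM) in replicate 1 (blue) and replicate 2 (orange). Points are TPM values and bars the intervals that RSEM gives around its posterior mean, so a point can lie at or beyond the end of its bar, as for E2F1 and E2F3. TFDP1 and E2F4 stand above the other genes in both replicates.

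RB1 encodes the retinoblastoma protein, the founding pocket protein and a tumour suppressor. It lies on chromosome 13 from 48877880 to 49173572 and had 28.9 TPM in replicate 1 and 26.7 in replicate 2, from 809 and 845 estimated counts. RBL2 (p130), the pocket protein typical of resting cells, lies on chromosome 16 from 53467889 to 53525560 and had 29.1 and 30.2 TPM. RB1 and RBL2 were thus at nearly the same level, with an RB1 to RBL2 ratio of 0.938 ± 0.0760 (SD, n = 2). With the longest transcripts RB1 lay above RBL2, at 170 and 177 counts per kb against 161 and 151. RBL1 (p107), which is known to rise in cycling cells, lies on chromosome 20 from 35624752 to 35724400 and had 16.3 TPM in replicate 1 and 22.0 in replicate 2. It was the lowest pocket protein gene in both replicates. Of the summed pocket protein TPM, 74.3 and 78.9, RB1 made up 36.3% ± 3.56, RBL1 25.0% ± 4.23 and RBL2 38.7% ± 0.664 (SD, n = 2).

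Among the E2F genes, E2F4 was the highest. This gene lies on chromosome 16 from 67226058 to 67232821, and had 64.8 TPM in replicate 1 and 63.5 in replicate 2 from 887 and 816 counts. E2F1, on chromosome 20 from 32263283 to 32274191, had 42.9 and 37.7 TPM. E2F3, on chromosome 6 from 20402110 to 20493945, had 31.7 and 32.2 TPM and the most counts of all members, 1098 and 1062. TPM divides by transcript length, which was 4692 and 4640 nt for E2F3 and 1883 and 1836 nt for E2F4, so E2F3 was lower than E2F4 per length. E2F2, on chromosome 1 from 23832930 to 23857725, had 17.4 and 14.5 TPM, the lowest of the family in both replicates. The order E2F4, E2F1, E2F3, E2F2 was the same in both libraries. E2F4 alone held 42.1% ± 1.13 of the summed TPM of these 4 genes (SD, n = 2). The 3 activators together had 92.0 and 84.5 TPM, 1.37-fold ± 0.0636 the level of E2F4. Both listed E2F3 transcripts count towards that sum, since values per gene do not separate them.

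**Figure D2:**
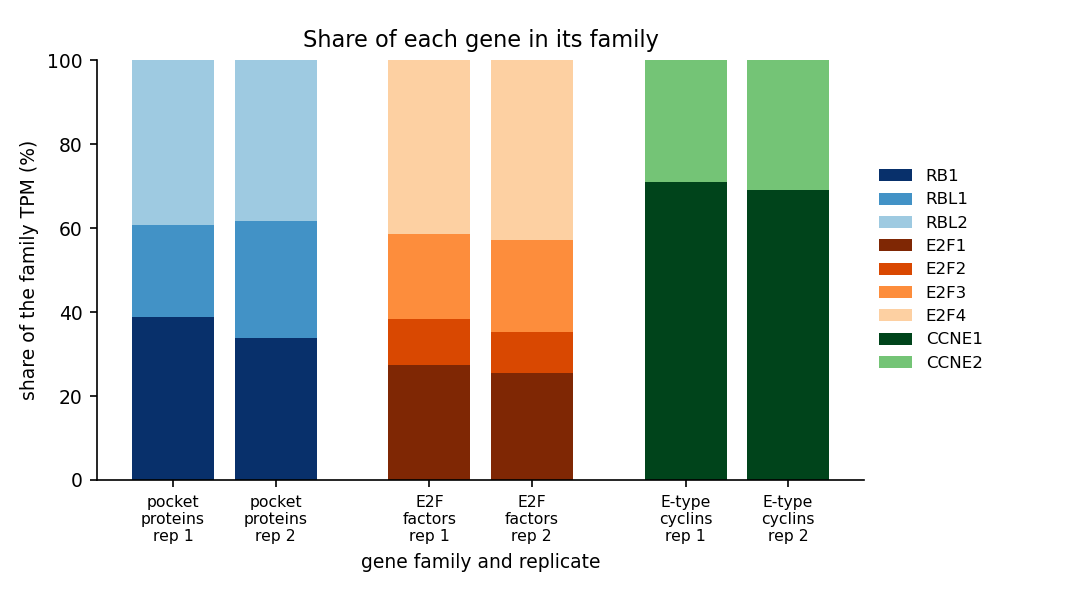
Share of each gene in the summed TPM of its family (vertical axis, percent, from 0), for the pocket proteins, the E2F factors and the E-type cyclins in each replicate (horizontal axis). E2F4 takes 41.3% and 42.9% of its family, and RBL1 changes most between the replicates, from 22.0% to 27.9%.

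TFDP1 encodes DP1, the dimer partner of these E2F proteins. It lies on chromosome 13 from 114239036 to 114295788 and had the highest TPM of the members, 75.9 in replicate 1 and 69.8 in replicate 2. This rank depends on transcript length, since with the longest annotated transcript of each gene TFDP1 had 321 and 306 counts per kb and E2F4 had more, 339 and 312. Its level was 0.478 ± 0.00886 of the summed level of E2F1 to E2F4 (SD, n = 2), which had 157 and 148 TPM. Summed over E2F1 to E2F8, the E2F genes had 251 and 240 TPM, against 133 and 121 for TFDP1 and TFDP2 together. The ratio of the partners to all E2F genes was 0.517 ± 0.0182, although E2F7 and E2F8 are known to bind DNA without a DP partner.

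CCNE1 and CCNE2 encode cyclins E1 and E2, which activate CDK2, and both genes are E2F targets. CCNE1 lies on chromosome 19 from 30302898 to 30315219 and had 37.99 and 37.75 TPM. CCNE2 lies on chromosome 8 from 95891998 to 95908906 and had 15.5 and 16.9 TPM from 171 and 183 counts, the fewest of all members. CCNE1 was higher than CCNE2 by 2.46-fold in replicate 1 and 2.23-fold in replicate 2, or 1.23 ± 0.10 on the log2 scale (SD, n = 2). The size of this ratio depends on transcript length. With the longest annotated transcript of each gene in place of the estimated length it was 1.95 on the log2 scale. CDK2, singled out after its values were seen because it is the partner of cyclin E, had 136 and 126 TPM, 2.42-fold ± 0.163 the sum of both cyclin genes.

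The order of the levels was read with the spread between replicates and with the intervals RSEM gave for each TPM, whose level the sources used here do not state. Neighbours in the order were called resolved if their replicate ranges were apart and their intervals did not overlap in either replicate. Of the 9 neighbouring pairs 1 was resolved, E2F4 above E2F1 (1.59-fold). The other 8 pairs did not meet both conditions. They were TFDP1 and E2F4, E2F1 and CCNE1, CCNE1 and E2F3, and E2F3 and RBL2. Also among them were RBL2 and RB1, RB1 and RBL1, RBL1 and CCNE2, and CCNE2 and E2F2. For CCNE1 and E2F3, and for RB1 and RBL1, the intervals overlapped only in replicate 2. By the replicate ranges alone, 3 pairs remained unresolved, those of E2F1 with CCNE1, RBL1 with CCNE2 and CCNE2 with E2F2. Over all 45 pairs of members 32 were resolved. TFDP1 and E2F4 were each above all 8 other members, while RB1 could not be placed apart from E2F3, RBL2, CCNE1 or RBL1. An exact permutation test of 2 against 2 values cannot go below p = 0.333, so no test was made between genes.

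RBL1 had the largest TPM ratio between the replicates among the members, 0.43 on the log2 scale. Its estimated counts were 404 and 410, a log2 ratio of 0.10 after scaling for library size (exact binomial p = 0.327, adjusted p = 0.790). The transcript length that RSEM estimated was 3365 nt in replicate 1 and 2638 nt in replicate 2, and TPM divides by that length. A TPM ratio of this size was found in 5.89% of 7943 detected genes with a mean of 10 to 100 TPM. The gene has 4 listed transcripts, from 599 to 5686 nt, and the length is their mean weighted by estimated level. With 1 fixed length per gene, RBL1 had 18.4 and 19.3 TPM.

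RB1 and CCNE1 also had lengths that differed by over 1.1-fold between replicates. For RB1 the length was 3804 nt in replicate 1 and 4457 nt in replicate 2, with 6 listed transcripts of 480 to 4768 nt, of which the longest is the protein-coding one. Its scaled counts were higher in replicate 2 by 0.14 on the log2 scale, while its TPM was lower by 0.11 (log2 ratio of -0.11). The authors' table of pooled reads gave RB1 a length of 4470 nt and 25.6 TPM, below both replicates, from 1654 counts, the sum of the replicates' counts. For CCNE1 the length was 1615 and 1398 nt, so that 444 and 366 counts gave nearly equal TPM. In all, 3 of the 10 members differed in effective length by at least 1.1-fold, and of the 7943 genes of like level 26.7% did, a share near that of the members. TFDP1 and RBL2 also had TPM and count ratios of opposite sign, all of at most 0.12 in size, and the count ratio of TFDP1 changed sign with another scaling. E2F1 has a single listed transcript, and its length was 2503 nt in both replicates.

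**Figure D3:**
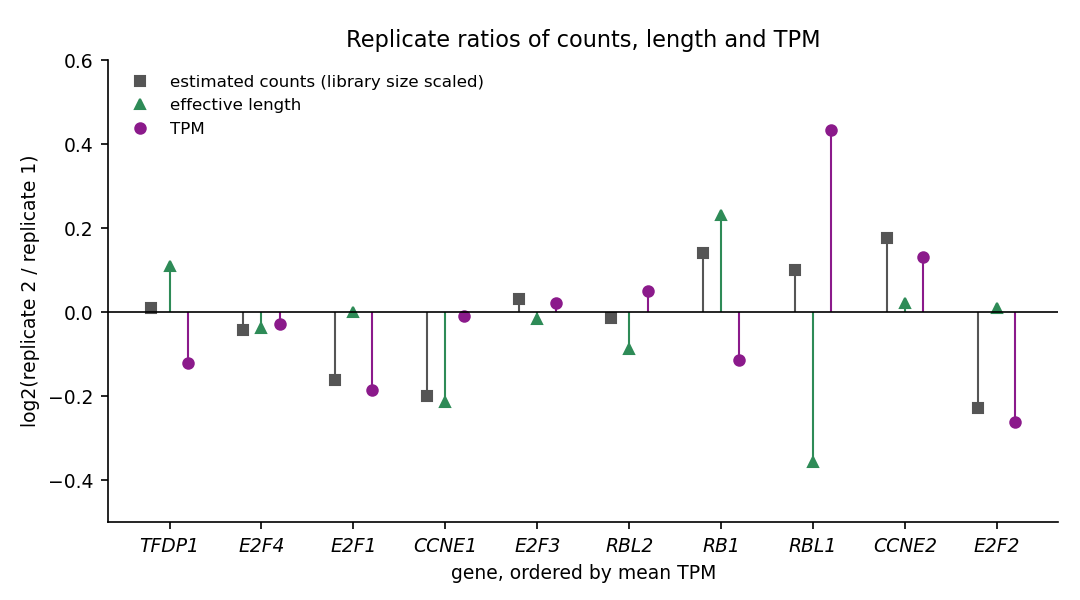
Log2 ratio of replicate 2 over replicate 1 (vertical axis) of library-size scaled counts (squares), effective transcript length (triangles) and TPM (circles) for each gene (horizontal axis). RBL1 has a length ratio of -0.36, a TPM ratio of 0.43 and a count ratio of 0.10, while for CCNE1 a count ratio of -0.20 and a length ratio of -0.21 leave TPM nearly level.

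The counts of each gene were compared between the libraries by an exact two-sided binomial test, adjusted by the Benjamini-Hochberg method over 17920 genes. The test compares these libraries, not conditions. None of the 10 members differed at an adjusted p of 0.05, where 3.88% of all tested genes did. Without adjustment 4 members had a p under 0.05, against 13.3% of all tested genes and 17.3% of the 8740 genes with at least as many counts as CCNE2. E2F2 was the most different, with 548 and 443 counts, a log2 ratio of -0.23 and an exact binomial p of 0.0132 (adjusted p = 0.177). E2F1 had 785 and 665 counts (exact p = 0.0355, adjusted p = 0.316). CCNE1 had a log2 ratio of -0.20 and RB1 of 0.14, each with an exact p of 0.0491 and an adjusted p of 0.374. The signs of these count ratios were the same with RLE and total-count scaling, but none of the 4 passed the adjusted threshold, and in TPM RB1 and CCNE1 did not follow their counts. The median size of the TPM ratio between replicates was 0.12 on the log2 scale over the members and 0.12 over the 7943 genes of like level.

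For most members the sharing of reads with other genes left little uncertainty in the estimated count. The number of shared reads was not measured. The posterior SD of the estimated count, which describes how uncertain the sharing of reads is, was 0 in both replicates for RB1, E2F1, E2F2, E2F4 and CCNE1, and at most 1.41 counts for E2F3, RBL1, RBL2 and TFDP1. CCNE2 was the exception, with posterior SDs of 4.09 and 9.37 counts. INTS8, a subunit gene of the Integrator complex, overlaps exons of CCNE2 from the opposite strand and had 1005 and 1036 counts with the same posterior SDs of 4.09 and 9.37. The lncRNA gene ENSG00000269846 overlaps RBL1 exons in the same way and had 5.17 and 1.02 counts, with posterior SDs equal to those of RBL1, 0.43 and 0.21. AKTIP, a protein-coding gene, overlaps RBL2 exons from the opposite strand and had 144 and 131 counts. Its posterior SDs were 1.58 and 2.04, and those of RBL2 were 0.91 and 1.41. The strand setting of the counting was not known here. Equal posterior SDs in genes on opposite strands are what reads assigned to either gene give, so the split of reads between CCNE2 and INTS8 is uncertain. LPAR6, a receptor gene that lies inside RB1 on the opposite strand, had 9 and 17 counts and no exon overlap. The annotated pseudogene copies of members were nearly silent. TFDP1P2 had 4.48 and 4.57 counts, E2F3P2 had 2 and 1, E2F4P1 had 0 and 1, and TFDP1P1, TFDP1P3 and E2F3P1 had none.

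The other genes of the pathway were read from lists of 53 different genes in all. Of these 51 were detected and 0 of 51 tested differed between the libraries by the exact binomial test at an adjusted p of 0.05, and 2 of them, CKS1B and CDC6, named after their values were seen, had an unadjusted p under 0.05. Over all genes tested these shares were 3.88% and 13.3%. Among the other E2F and DP genes 5 of 6 were detected, with TFDP2 highest at 54.1 ± 4.41 TPM and E2F8, an atypical repressor, the lowest detected at 13.1 ± 1.02 TPM (SD, n = 2). TFDP3, a retrocopy of TFDP1 known from testis, had 0 counts in both replicates, which allows up to 0.283 and 0.297 CPM, a limit that covers counting error only. E2F5, singled out after its values were seen as the other repressor of the E2F4 type, had 36.7 and 33.2 TPM, or 34.9 ± 2.47 (SD, n = 2).

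Of the cyclins and kinases 7 of 8 were detected, and all of these were above the median of detected protein-coding genes. CDK4, which phosphorylates the pocket proteins with D-type cyclins, was highest at 274 ± 10.4 TPM, and CDK6 was the lowest detected at 32.8 ± 0.318 TPM (SD, n = 2). CCNA1, the A-type cyclin of the germ line, had 0 counts in replicate 1 and 1 in replicate 2. All 7 CDK inhibitors were detected and only 2 of them were above that median. CDKN2A, which encodes the CDK4 and CDK6 inhibitor p16 and also ARF, had 308 and 298 TPM, above CDK4 in both replicates. CDKN1C was lowest with 2.75 and 3.80 TPM. CDKN2A transcripts of p16 and of ARF are not separated in values per gene.

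The 7 genes listed with DREAM and its MuvB core were all detected. DREAM is the complex in which RBL1 or RBL2 and E2F4 repress cell-cycle genes. The list also holds MYBL2 and DYRK1A, which are not subunits of that repressor complex. RBBP4, a histone-binding subunit shared with many chromatin complexes, was highest at 382 ± 4.11 TPM, and LIN37 was lowest at 8.16 ± 2.79 TPM (SD, n = 2). LIN37 had 56.4 and 38.6 counts with posterior SDs of 8.09 and 6.78, so its value is less certain. All 6 genes of cyclin E turnover and activation were detected. SKP1, a subunit of the ubiquitin ligases that degrade cyclin E, was highest at 159 ± 0.799 TPM, and FBXW7, which recognises cyclin E for that ligase, was lowest at 13.9 ± 2.11 TPM (SD, n = 2).

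The 22 E2F target genes were all detected, and all 22 lay above the median of detected protein-coding genes. On the scale of log2(mean TPM + 1) they had a median of 6.64, and the detected protein-coding genes one of 4.47, and their sum was 3029 and 2950 TPM. MCM4, a subunit of the replicative helicase, was highest at 466 ± 10.9 TPM, and ORC1, of the origin recognition complex, was lowest at 31.2 ± 2.15 TPM (SD, n = 2). The mean of ORC1 lay close to that of E2F3, 32.0 ± 0.354 TPM. The list was put together from textbook targets that are active in dividing cells, and with earlier results of these data known, so its high level is a description. For comparison, the medians of the pocket protein and the E2F genes were 4.85 and 5.21 on the same scale.

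**Figure D4:**
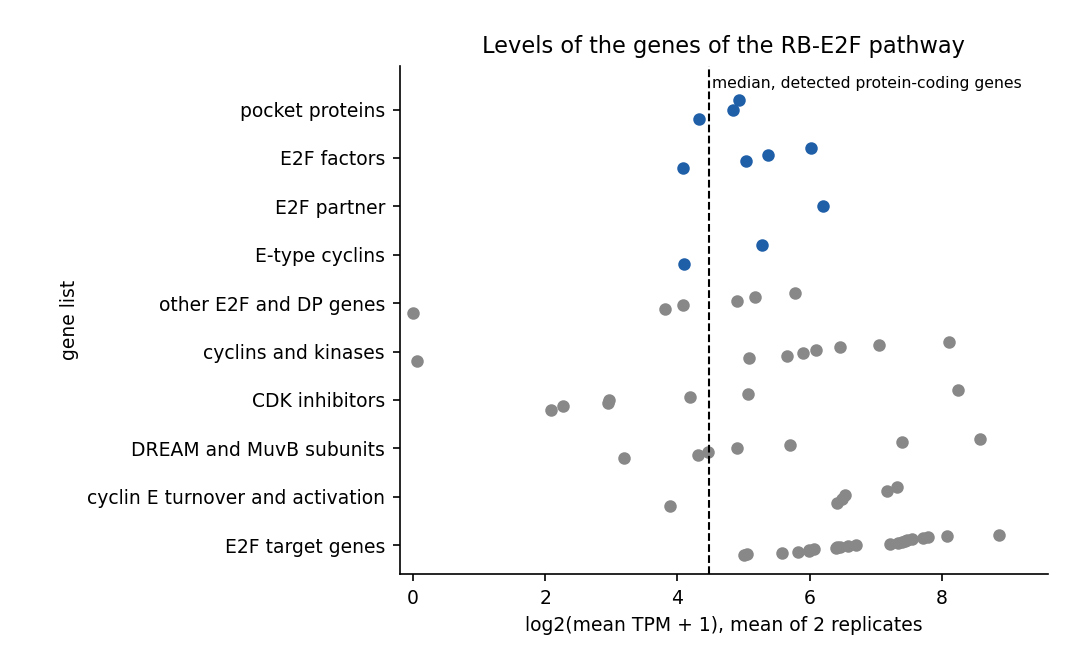
Level of each gene as log2(mean TPM + 1) over 2 replicates (horizontal axis) in the lists of the pathway (vertical axis), with the members in blue and other genes in grey. The dashed line is the median of detected protein-coding genes, 4.47, and all 22 E2F target genes lie to the right of it. MYBL2, CCNA2 and CDC25A are in 2 lists each.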

How the data were processed

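The labels and methods state that the authors trimmed reads of 50 bp with Trimmomatic 0.36 and aligned them with STAR 2.6.1c to GRCh37, with Ensembl genes. The methods name featureCounts for counting, but the deposited columns are those of RSEM, and the labels list RSEM 1.3.1. Estimated counts, TPM and FPKM values were made by the authors, and so were the deposited scores for uncertainty (posterior SD and TPM interval bounds). A table of the pooled reads was used as the authors' values only.

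Members and lists were chosen with earlier results of these data known. Symbols, coordinates and the lengths of annotated transcripts came from GENCODE 44 mapped to GRCh37, and 96.1% of identifiers had a symbol. The RSEM lengths came with the authors' values and can differ from these, so values with the longest transcripts rest on another annotation. Promoter sequences came from RefSeq (GRCh38) and were matched to GRCh37. Counts were rounded and scaled by TMM in edgeR 4.0.16 (R 4.3.3), and tested with scipy 1.17.1 over genes whose counts in both libraries summed to 10 or more. For count ratios 0.5 was added. Named were all members and, in each list, the highest, the lowest and undetected genes. The markers PECAM1 and NEFL were not analysed here. Some marker results are not reported here. Depth limits a gene with no reads to at most 3 counts. Alternatives were other thresholds, scalings, filters, lengths and estimates, and each replicate alone.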

Additional observations from a re-analysis of the deposited data

How the results depend on the processing

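No paired analysis was possible because there is only 1 group. The 10 members stayed detected under every threshold tried, and 49 to 51 pathway genes did. No member differed between the libraries under any of 6 other settings of the binomial test, with a smallest adjusted p of 0.107 to 0.289. With whole counts only, 6 members were tested. The test needs both libraries and was not run without either. Unresolved neighbours numbered 3 by replicate ranges alone, and 6 to 7 without either replicate.

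Of the alternatives for transcript length, 1 fixed effective length per gene moved none of the 4 shares and ratios beyond the spread between replicates, giving 36.4% for RB1 and 42.1% for E2F4. With the longest annotated transcript the share of RB1 was 43.2% and that of E2F4 was 36.0%. That E2F4 transcript, of 2615 nt, is annotated with a retained intron, and the longest protein-coding one of E2F4 has 2110 nt. With the same longest transcripts, the log2 ratios were -1.53 for TFDP1 over the E2F sum and 1.95 for CCNE1 over CCNE2. With posterior mean TPM the share of E2F4 was 44.1% and the ratio of CCNE1 over CCNE2 was 1.12. The median of the E2F targets was 6.63 with a pseudocount of 0.01. The signs of both log2 ratios were kept, but with the longest transcripts E2F4 passed TFDP1 and RB1 passed RBL2 in both replicates, and CCNE2 in place of E2F2 had the lowest mean of the members. These changes follow from the lengths used, and the cause of those with posterior mean TPM was not tested. Without either replicate the share of RB1 was 33.8 to 38.9% and that of E2F4 41.3 to 42.9%.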
